A study of Mus musculus with 15 samples.

Results

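Transcript levels of 9 genes through which macrophages send or receive co-signals were described in tumor-associated macrophages (TAMs). The 9 genes, Cd80, Cd86, Cd274, Pdcd1lg2, Cd40, Icosl, Cd276, Havcr2 and Sirpa, were taken by symbol from the 55335 genes of the deposited expression table, and each symbol was found there. The TAMs had been sorted by flow cytometry from tumors that Hepa1-6 cells, which are mouse hepatoma cells, formed in the liver of C57BL/6 mice. The tumor cells carried a control lentivirus, or overexpressed miR-144 or miR-451a. The lentivirus was given to the tumor cells, and the level of either miRNA in the macrophages was not analysed here. There were 5 samples for each of the 3 groups, called here control TAMs, miR-144 TAMs and miR-451a TAMs, and all 15 are labelled untreated. The study's legend for the RNA-seq panels gives fewer samples per group than the labels do, and it does not name them, so all labelled samples were used. The labels give no age or sex of the mice and do not say that the samples of a group came from separate mice, so p-values measure the spread between these samples, which may be technical. Values are FPKM, a fragment count divided by transcript length and by the mapped fragments of the sample, and the depth implied by the low values was between 15.7 and 30.5 M fragments per sample.

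A T cell needs signals beyond its antigen receptor. Members of the B7 family on the antigen-presenting cell supply them: CD80 and CD86 bind CD28 to stimulate and CTLA-4 to restrain, ICOS ligand binds ICOS, and PD-L1 and PD-L2 (encoded by Cd274 and Pdcd1lg2) bind PD-1 and dampen the T cell response. CD40 receives help from CD40 ligand on T cells, whereas TIM-3 (Havcr2) and SIRP-alpha (Sirpa) are inhibitory receptors of the myeloid cell itself, and macrophages in tumors are a known source of PD-1 ligands.

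The mature miRNAs overexpressed in the tumor cells are shown to define the groups, from RefSeq with its GRCm38.p6 coordinates. All lie on the plus strand of chromosome 11, miR-144-5p at chr11:78073010-78073032, miR-144-3p at chr11:78073047-78073066 and miR-451a at chr11:78073186-78073207. Capitals mark the seed, bases 2 to 8, and no seed is shared between them. The labels do not say which arm of miR-144 was meant.
mmu-miR-144-5p: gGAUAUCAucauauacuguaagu
mmu-miR-144-3p: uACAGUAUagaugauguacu
mmu-miR-451a: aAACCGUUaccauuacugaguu

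Promoters of 6 of the 9 genes were found in the RefSeq table (GRCm38.p6), each from 250 bases before to 50 bases after the annotated start. Those of Cd274 (chr19:29367188-29367487, plus strand) and Pdcd1lg2 (chr19:29410669-29410968, plus strand) are printed because these neighbouring genes both fell, that of Icosl (chr10:78069118-78069417, plus strand) because it showed the largest rise among the 9, and that of Havcr2 (chr11:46454681-46454980, plus strand) because it holds a match. Capitals mark a match to a searched motif.
Cd274: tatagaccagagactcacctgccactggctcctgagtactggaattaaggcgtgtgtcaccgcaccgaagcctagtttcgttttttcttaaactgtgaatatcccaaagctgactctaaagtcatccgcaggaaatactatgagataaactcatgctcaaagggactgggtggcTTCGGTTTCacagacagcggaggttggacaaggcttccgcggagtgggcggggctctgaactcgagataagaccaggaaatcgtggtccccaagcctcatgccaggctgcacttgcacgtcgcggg
Pdcd1lg2: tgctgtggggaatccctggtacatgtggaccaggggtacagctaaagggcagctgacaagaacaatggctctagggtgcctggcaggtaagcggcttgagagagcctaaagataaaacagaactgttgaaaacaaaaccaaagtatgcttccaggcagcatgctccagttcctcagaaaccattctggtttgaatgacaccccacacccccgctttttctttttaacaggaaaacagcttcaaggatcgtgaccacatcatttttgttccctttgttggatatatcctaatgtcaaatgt
Icosl: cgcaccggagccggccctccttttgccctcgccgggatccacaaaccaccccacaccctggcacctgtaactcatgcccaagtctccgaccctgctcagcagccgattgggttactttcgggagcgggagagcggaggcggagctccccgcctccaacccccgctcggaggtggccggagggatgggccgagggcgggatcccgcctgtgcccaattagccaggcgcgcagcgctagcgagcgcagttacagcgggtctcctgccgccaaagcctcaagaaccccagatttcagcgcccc
Havcr2: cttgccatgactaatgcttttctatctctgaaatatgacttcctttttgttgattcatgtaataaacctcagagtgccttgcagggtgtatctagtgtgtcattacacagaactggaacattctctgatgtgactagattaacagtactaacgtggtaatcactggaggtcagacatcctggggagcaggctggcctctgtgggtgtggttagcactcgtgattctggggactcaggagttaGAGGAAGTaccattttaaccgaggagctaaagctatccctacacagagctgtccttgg

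The 4 motifs were searched on both strands: GAAANNGAA, the core of the interferon-stimulated response element, TTCNNNGAA, a STAT site, GGANTTTCC for NF-kB and GAGGAAGT for PU.1. The first and the second can overlap each other. Cd274 held the interferon-stimulated response element core on the minus strand, 76 bases before its start, as did 8.56% of 32851 promoters. Havcr2 held the PU.1 motif on the plus strand, 8 bases before its start, as did 3.2% of promoters. The other 4 promoters (Cd80, Pdcd1lg2, Icosl and Cd276) held no match to these letters, and over all promoters the STAT and NF-kB letters occurred in 8.3% and 1.25%. A match is a run of letters in this window and no evidence of binding.

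The question of the comparisons was how the transcriptome of TAMs differed when the surrounding tumor cells overexpressed either miRNA. In miR-144 TAMs, the transcripts of both PD-1 ligands fell, those of Icosl, Havcr2, Cd86, Cd80 and Cd276 rose, and those of Cd40 and Sirpa did not pass the test. The same calls were made in miR-451a TAMs. Thus 5 of 9 genes (55.6%) were higher and 2 of 9 (22.2%) lower in each comparison at an adjusted p under 0.05 (limma on log2(FPKM + 1), adjusted over 29540 genes). In bulk samples fewer cells that express a gene and less RNA of it per cell cannot be told apart. The comparisons share the control samples and are given side by side for that reason. Calls were common in these data. Over all 29540 genes, 23.1% were called higher and 9.65% lower in miR-144 TAMs, and 24.5% and 9.69% in miR-451a TAMs. Among the 11419 genes whose mean reached 1 FPKM, to which all 9 belong, 47.1% were higher and 20.1% lower in miR-144 TAMs, and 48.1% and 20.3% in miR-451a TAMs. These shares come from a separate fit, adjusted over those genes only, in which 7 and 8 of the 9 genes were called. In the fit of all 29540 genes, 7159 and 7326 of the 11419 were called in either direction. In each comparison 7 of the 9 genes had no overlap between the groups, as had 53.9% of these 11419 genes in miR-144 TAMs and 55.2% in miR-451a TAMs. The count of higher genes and that of lower genes among the 9 were near the background at that level, and only the sizes of single genes are described further. The median change was 0.60 and 0.65 (log2) over the 9 genes, and 0.13 and 0.14 over the 11419 genes.

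**Figure D1:**
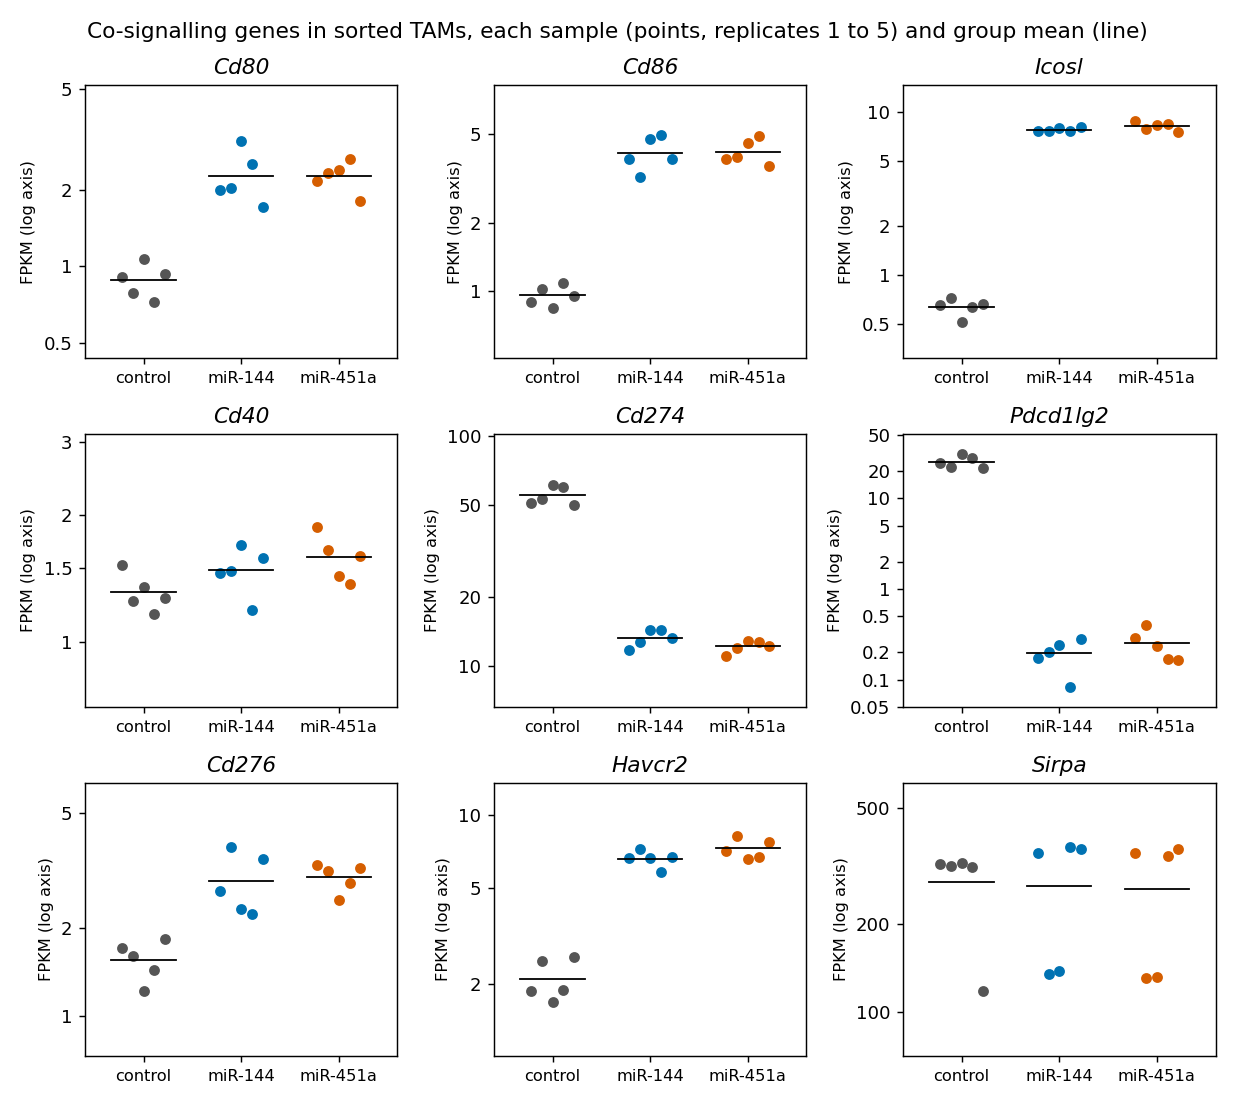
FPKM (log axis) of the 9 genes in each of 15 samples, 5 points per group in the order of replicates 1 to 5, with the group mean as a line. Control points of Cd274 and Pdcd1lg2 lie above all points of both miRNA groups, those of Icosl, Havcr2, Cd86, Cd80 and Cd276 lie below them, and Sirpa shows a lower level in 1 control sample and in 2 samples of each miRNA group.

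The PD-1 ligands lie side by side on chromosome 19. In the GENCODE M21 annotation (GRCm38), Cd274 (ENSMUSG00000016496) spans chr19:29367455-29388095 and Pdcd1lg2 (ENSMUSG00000016498) spans chr19:29410919-29471161, both on the plus strand and 22823 bases apart. Cd274, which encodes PD-L1, measured 51.0, 53.3, 61.1, 59.9 and 49.8 FPKM in control TAMs. In miR-144 TAMs it measured 11.7, 12.7, 14.3, 14.3 and 13.3 FPKM, and in miR-451a TAMs 11.0, 11.99, 12.8, 12.7 and 12.2 FPKM. No miRNA sample came near the lowest control. The means were 55.03 ± 5.19, 13.3 ± 1.11 and 12.2 ± 0.708 FPKM (SD, n = 5 each), a 4.15-fold and a 4.53-fold lower level. On the log2(FPKM + 1) scale Cd274 changed by -1.97 (95% confidence interval -2.12 to -1.83, adjusted p = 1.40e-11) and -2.09 (-2.23 to -1.94, adjusted p = 6.98e-12). Even so, Cd274 was still the second most abundant of the 9 transcripts in each group, since FPKM is per length and can be compared between genes.

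Pdcd1lg2, which encodes PD-L2, showed the largest change of the 9 genes. It measured 24.6, 22.5, 31.1, 27.8 and 21.6 FPKM in control TAMs. In miR-144 TAMs the values were 0.172, 0.200, 0.243, 0.0826 and 0.281 FPKM, and in miR-451a TAMs 0.290, 0.395, 0.236, 0.168 and 0.166 FPKM. The groups did not overlap, and the miRNA samples were close to the limit of the assay, where 3 fragments correspond to 0.111 FPKM in the shallowest sample. With the implied depths, the miRNA samples held about 3.24 to 14.5 fragments of Pdcd1lg2 and the control samples at least 887. The means were 25.5 ± 3.91, 0.196 ± 0.0756 and 0.251 ± 0.0957 FPKM, a 130-fold and a 102-fold lower level, and these ratios rest on few fragments. The change on the log2(FPKM + 1) scale was -4.46 (-4.65 to -4.27, adjusted p = 7.45e-14) and -4.40 (-4.59 to -4.20, adjusted p = 8.63e-14), and it became -6.47 and -6.22 with a pseudocount of 0.1. Among the 11419 genes, Pdcd1lg2 held rank 16 and rank 19 from the lowest change, and Cd274 rank 99 and rank 84.

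The relation between both ligands shifted as well. Cd274 exceeded Pdcd1lg2 by 1.97 to 2.37 times in control TAMs, by 47.3 to 173 times in miR-144 TAMs and by 30.3 to 75.3 times in miR-451a TAMs. PD-L2 mRNA was thus lowered further than PD-L1 mRNA in each miRNA sample. Antisense genes overlap both loci, and whether the counting used strand is not given in the sources used here, so reads of overlapping stretches may not have been told apart. The antisense gene A930007I19Rik at Pdcd1lg2 measured 1.16 to 1.43 FPKM in control, 0.260 to 0.334 in miR-144 and 0.143 to 0.297 in miR-451a TAMs. The antisense gene AC119228.1 at Cd274 measured 6.86 and 8.47 FPKM in control replicates 1 and 4, between 0.102 and 1.58 FPKM in the other samples, and these 2 controls were not set apart in Cd274.

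**Figure D2:**
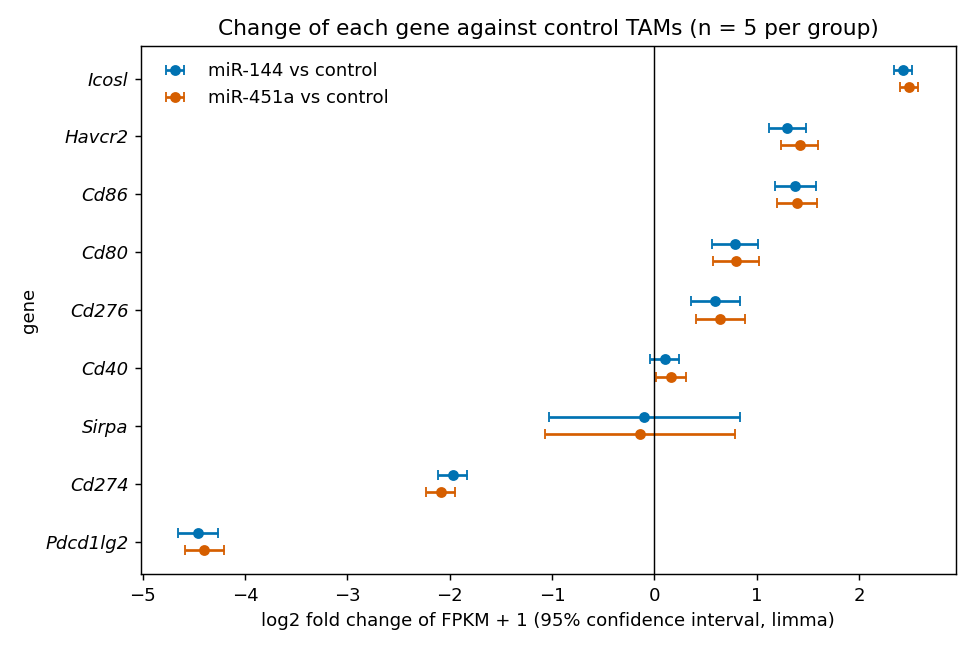
Change of the 9 genes in miR-144 TAMs and miR-451a TAMs against control TAMs, as the difference of log2(FPKM + 1) with its 95% confidence interval (limma, 5 samples per group, shared controls). Icosl lies near 2.43 and 2.49, Pdcd1lg2 near -4.46 and -4.40, and the wide intervals of Sirpa span 0.

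Among the co-stimulatory ligands, Icosl stood out. It encodes ICOS ligand (ENSMUSG00000000732, chr10:78069302-78083913, plus strand) and measured 0.658, 0.726, 0.515, 0.636 and 0.666 FPKM in control TAMs. In miR-144 TAMs it measured 7.70, 7.71, 7.96, 7.64 and 8.14 FPKM, and in miR-451a TAMs 8.82, 7.88, 8.35, 8.48 and 7.61 FPKM. The lowest miRNA sample was far above the highest control, and the spread within the miR-144 group was small, with a coefficient of variation of 2.71%. The means were 0.640 ± 0.0776, 7.83 ± 0.212 and 8.23 ± 0.484 FPKM, a 12.2-fold and a 12.9-fold rise, with log2 changes of 2.43 (2.34 to 2.52, adjusted p = 1.27e-14) and 2.49 (2.40 to 2.58, adjusted p = 8.66e-15). Icosl held rank 40 and rank 41 from the highest change among the 11419 genes. From the last place among the 9 genes in control TAMs, where its range overlapped that of Cd80, it moved to the third place in both miRNA groups.

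Cd80 and Cd86 are neighbours in function, since their products compete for the same receptors on T cells, and both lie on chromosome 16. Cd80 (ENSMUSG00000075122, chr16:38455561-38496335, plus strand) measured 0.910, 0.785, 1.07, 0.722 and 0.932 FPKM in control TAMs. In miR-144 TAMs it measured 2.002, 2.03, 3.12, 2.53 and 1.71 FPKM, and in miR-451a TAMs 2.17, 2.34, 2.41, 2.64 and 1.81 FPKM. The groups did not overlap, and Cd80 rose 2.58-fold and 2.57-fold, with log2 changes of 0.79 (0.56 to 1.01, adjusted p = 2.82e-05) and 0.80 (0.57 to 1.02, adjusted p = 2.43e-05).

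Cd86 (ENSMUSG00000022901, chr16:36603869-36666081, minus strand) was at 0.892, 1.01, 0.836, 1.09 and 0.945 FPKM in the control samples, much like Cd80. The miR-144 samples gave 3.86, 3.20, 4.74, 4.94 and 3.87 FPKM and the miR-451a samples 3.87, 3.94, 4.54, 4.86 and 3.59 FPKM. Again all miRNA samples were above all controls, and Cd86 rose 4.31-fold and 4.36-fold (log2 change 1.38, 1.18 to 1.58, adjusted p = 2.11e-08, and 1.40, 1.20 to 1.59, adjusted p = 1.73e-08). The ratio of Cd86 to Cd80 was between 0.783 and 1.51 in control TAMs, between 1.52 and 2.26 in miR-144 TAMs and between 1.69 and 1.98 in miR-451a TAMs. The highest control and the lowest miR-144 sample were therefore almost at the same ratio.

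Cd40, the receptor for T cell help (ENSMUSG00000017652, chr2:165055627-165072948, plus strand), behaved differently. It measured 1.52, 1.25, 1.35, 1.16 and 1.27 FPKM in control TAMs, 1.46, 1.47, 1.70, 1.19 and 1.59 in miR-144 TAMs and 1.88, 1.65, 1.44, 1.37 and 1.60 in miR-451a TAMs. The 3 groups overlapped. The log2 change was 0.10 (-0.05 to 0.25, adjusted p = 0.326) in miR-144 TAMs and 0.16 (0.02 to 0.31, adjusted p = 0.0858) in miR-451a TAMs, so that a change of up to 0.31 was not excluded by the interval. The second comparison was close to the threshold. Its change turned sign and its call moved with the processing: the adjusted p was 0.0412 when only genes averaging 1 FPKM or more were tested and 0.0289 after rescaling to TPM, while the change was -0.0006 (adjusted p = 1) after quantile normalization. The adjusted p was 0.0492 without control replicate 1 and 0.0476 without miR-451a replicate 4.

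Cd276 encodes B7-H3, a B7 family member whose receptor on T cells is not settled (ENSMUSG00000035914, chr9:58524298-58555437, minus strand). It measured 1.71, 1.61, 1.22, 1.44 and 1.84 FPKM in control TAMs. The values were 2.70, 3.80, 2.34, 2.24 and 3.46 FPKM in miR-144 TAMs and 3.31, 3.14, 2.50, 2.86 and 3.22 FPKM in miR-451a TAMs. The lowest miR-144 sample lay only a little above the highest control, and the groups did not overlap. Cd276 rose 1.86-fold and 1.92-fold, with log2 changes of 0.60 (0.36 to 0.83, adjusted p = 0.000592) and 0.65 (0.41 to 0.88, adjusted p = 0.000276). Its antisense neighbour Gm10657 was at most at 0.182 FPKM.

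Havcr2 encodes TIM-3, an inhibitory receptor of exhausted T cells that myeloid cells also carry (ENSMUSG00000020399, chr11:46454935-46481255, plus strand). It measured 1.86, 2.49, 1.68, 1.89 and 2.58 FPKM in control TAMs, 6.60, 7.20, 6.63, 5.79 and 6.71 in miR-144 TAMs and 7.12, 8.15, 6.57, 6.71 and 7.75 in miR-451a TAMs. All miRNA samples were above all controls. The rise was 3.14-fold and 3.46-fold, with log2 changes of 1.30 (1.12 to 1.48, adjusted p = 1.62e-08) and 1.42 (1.24 to 1.60, adjusted p = 5.79e-09). Hence the genes that rose held receptors and ligands, stimulatory as well as inhibitory ones by their textbook roles.

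Sirpa encodes the receptor for the "do not eat me" signal CD47 and was the most abundant of the 9 transcripts (ENSMUSG00000037902, chr2:129592835-129632228, plus strand, with 14 annotated transcripts). It measured 321, 316, 323, 314 and 118 FPKM in control TAMs, 351, 135, 138, 365 and 360 in miR-144 TAMs and 350, 131, 132, 341 and 361 in miR-451a TAMs. The values fell at 2 levels with none between, 117.7 to 137.6 FPKM in 5 samples (control replicate 5, and replicates 2 and 3 of both miRNA groups) and 313.8 to 365.4 FPKM in the other 10. With these mixed levels the log2 change was -0.10 (-1.03 to 0.83, adjusted p = 0.931) and -0.14 (-1.07 to 0.79, adjusted p = 0.865), and the intervals leave room for a change of either sign. At the upper level the control samples measured 313.8 to 322.6 FPKM, the miR-144 samples 350.9 to 365.4 and the miR-451a samples 340.6 to 360.6, which is given as a description because the level was seen in the values. Without miR-144 replicate 2 or replicate 3, the change in miR-144 TAMs was 0.11, and without miR-451a replicate 2 or replicate 3 it was 0.07 in miR-451a TAMs, none of them past the threshold.

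The step within a group was 2.67 times in control, 2.55 times in miR-144 and 2.59 times in miR-451a TAMs. Of 4069 genes that averaged 10 FPKM or more, 15 (0.369%) had neighbouring values at least 2 times apart within each of the 3 groups, and none but Sirpa had exactly those 5 samples below its step. Cd274, the other co-signalling gene that averaged 10 FPKM or more, had no such step, and the genes below that level were not screened. The 5 samples had implied depths of 18.0 to 23.7 M fragments and the other 10 had 15.7 to 30.5 M. What set the levels was not tested.

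Between miR-451a and miR-144 TAMs, none of the 9 genes was called by limma, and none had an unadjusted p under 0.05. Over all genes, 0 of 29540 were called (0%), while 1459 had an unadjusted p under 0.05. The smallest adjusted p among the 9 was 0.909. The interval of the difference (miR-451a minus miR-144, log2) was -0.26 to 0.03 for Cd274, -0.13 to 0.26 for Pdcd1lg2, -0.03 to 0.15 for Icosl, -0.18 to 0.22 for Cd86 and -0.06 to 0.30 for Havcr2. A difference of the size seen against control is outside these intervals, whereas Sirpa (-0.97 to 0.89) allows a large one.

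The order of the transcripts changed accordingly. In control TAMs the means ran Sirpa, Cd274, Pdcd1lg2, Havcr2, Cd276, Cd40, Cd86, Cd80 and Icosl, and the ranges of Havcr2, Cd276 and Cd40 overlapped from neighbour to neighbour, as did those of Cd86, Cd80 and Icosl. In miR-144 TAMs the order was Sirpa, Cd274, Icosl, Havcr2, Cd86, Cd276, Cd80, Cd40 and Pdcd1lg2, with overlap from Cd86 to Cd276 and from Cd276 to Cd80. In miR-451a TAMs the order of the means was the same, with overlap between Icosl and Havcr2, between Cd276 and Cd80 and between Cd80 and Cd40.

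Shares of the summed FPKM express this balance within a sample, without reference to the scale of the library. Sirpa took 74.3%, 85.2% and 84.8% of the sum over the 9 genes in control, miR-144 and miR-451a TAMs, and because of its levels 5 of the 9 genes had shares that did not overlap between the controls and the miRNA samples. Without Sirpa, a sum chosen after its levels were seen, all 8 shares were apart. Shares sum to 100%, so that the fall of the abundant Cd274 and Pdcd1lg2 alone raises every other share. Cd40, whose FPKM overlapped between the groups, had shares of 1.5%, 3.83% and 4.09%, and the number of shares apart is therefore no measure of how many genes changed. Cd274 and Pdcd1lg2 together then made up 89.7% to 93.3% of the sum in control TAMs, 32.9% to 37.2% in miR-144 TAMs and 29.4% to 33.6% in miR-451a TAMs. Icosl grew from 0.738% to 20.3% and 21.2%, and Pdcd1lg2 shrank from 28.9% to 0.504% and 0.644% (means of 5 samples).

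In FPKM, the sum of Cd274 and Pdcd1lg2 was 71.4 to 92.2 in control, 11.9 to 14.6 in miR-144 and 11.3 to 13.1 in miR-451a TAMs. The sum of Cd80, Cd86, Icosl and Cd40 was 3.61 to 3.98, 14.4 to 17.5 and 14.6 to 17.4 FPKM. The PD-1 ligand transcripts thus exceeded the summed Cd80 and Cd86 transcripts by a median of 42.1 times in control TAMs (38.0 to 48.4), 2.03 times in miR-144 TAMs (1.85 to 2.46) and 1.88 times in miR-451a TAMs (1.71 to 2.28). These are ratios of mRNA, and surface protein was not measured here.

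**Figure D3:**
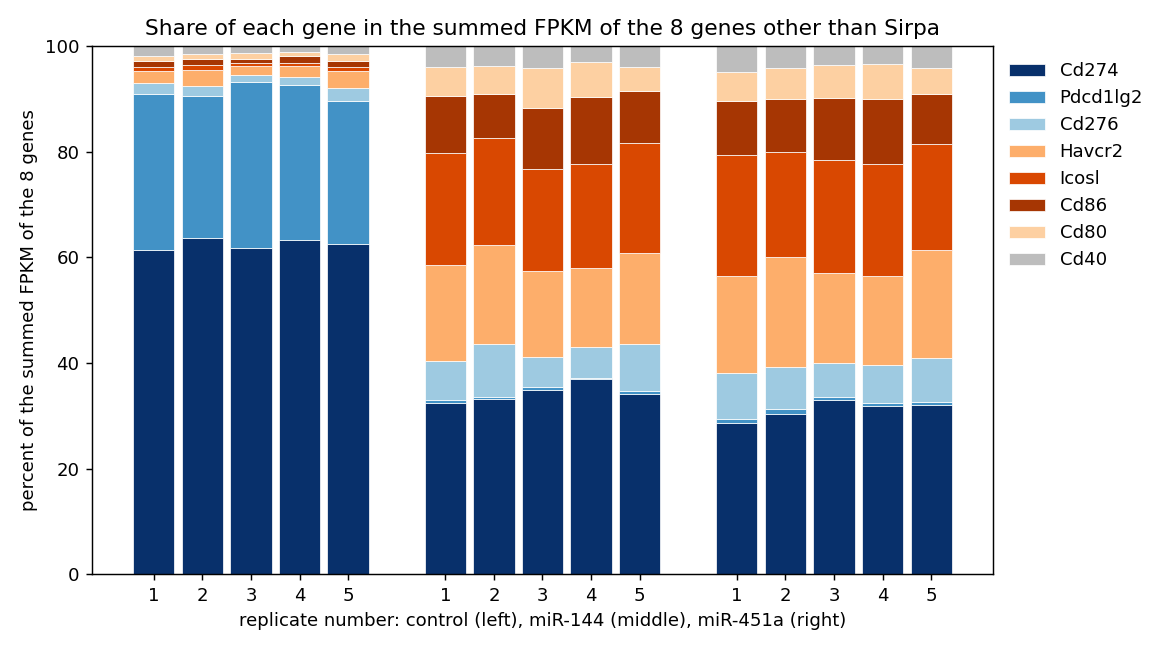
Percent of the summed FPKM of the 8 genes other than Sirpa that each gene makes up, 1 stacked bar per sample, in the 3 groups of 5 replicates. Cd274 and Pdcd1lg2 together fill 89.7% to 93.3% of the bars in control TAMs and 29.4% to 37.2% in the miRNA groups, where Icosl, Havcr2, Cd86, Cd276 and Cd80 widen.

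The genes whose log2(FPKM + 1) was most alike over the 15 samples are named by Pearson's r, as a description in which the points share the 3 groups. For Pdcd1lg2 they were Tmem26, F7 and Retnla (r = 0.999 each). Retnla, a marker of alternatively activated macrophages, averaged 415 FPKM in the controls and had a value of 0 in each miRNA sample. For Cd274 they were Csf2rb2 (0.999), Gpnmb (0.998) and Pld3 (0.998). Csf2rb2, a cytokine receptor chain, fell from 208 to 52.2 and 49.3 FPKM. For Icosl they were Tlr2 (0.999), Itga6 (0.999) and Clec12a (0.999), among which the pattern receptor Tlr2 had means of 7.67, 60.4 and 61.0 FPKM. Itm2b (0.997), Scarb2 and Slc9a9 were most like Cd86, Sf3a1 (0.988), Abca1 and Pde4b most like Cd80, St3gal5 (0.986), Traf1 and Aldoc most like Cd276, and Atp8b4 (0.994), Rybp and Vcpip1 most like Havcr2. The best likeness was lower for Cd40 (Sun1, 0.898, then Dhx30 and Klhdc3) and for Sirpa (Lemd2, 0.752, then Mesd and Arpc1a).

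Of 68 other genes in 7 lists of the same pathways, 6 were listed at 0 in all samples and 62 were tested. In miR-144 TAMs 41 were higher, 7 lower and 14 not called, and in miR-451a TAMs 40, 7 and 15. The higher genes made up 66.1% and 64.5% of those tested and the lower ones 11.3% in each comparison. Over all genes the shares were 23.1% and 24.5% higher and 9.65% and 9.69% lower. Over the 11419 genes, in the separate fit of those genes only, they were 47.1% and 48.1% higher and 20.1% and 20.3% lower. After median centring, 33 of 47 and 33 of 50 called genes were higher. None was called between the miRNA groups by limma at an adjusted p under 0.05. The median change was 0.08 in both comparisons for the other B7, butyrophilin and V-set ligands, against 0.14 and 0.07 for the TNF superfamily ligands and 1.33 and 1.27 for the partners and paralogs of SIRP-alpha. The same median was 0.0136 and 0.0154 over all 29540 genes, and 0.13 and 0.14 over the 11419 genes. Only 1 of the 6 tested genes of the first list and 1 of the 7 of the second averaged 1 FPKM or more, against all 8 of the third.

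Of 7 TNF superfamily ligands, 4 were higher in miR-144 TAMs and 3 in miR-451a TAMs. Tnfsf9, the 4-1BB ligand, rose from 0.697 ± 0.18 to 2.81 ± 0.62 and 3.13 ± 0.51 FPKM (log2 change 1.16 and 1.28, adjusted p = 2.47e-06 and 7.92e-07). Tnfsf14, also known as LIGHT, rose from 0.263 to 1.07 and 1.45 FPKM, and Tnfsf8, the CD30 ligand, from 0.0463 to 0.297 and 0.350 FPKM. Among the other B7, butyrophilin and V-set ligands 2 and 3 of 6 tested were higher, and Btnl2 rose only from 0.0065 to 0.103 and 0.109 FPKM. Vsir, which encodes VISTA and was picked out after its values were seen, measured 35.5 to 39.6 FPKM in control and 39.6 to 48.3 in miR-144 TAMs, and 108.6, 105.4, 47.9, 46.0 and 44.0 in miR-451a TAMs. Its call there (log2 change 0.78, adjusted p = 0.016) includes the 2 high samples.

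Of 16 tested ligands of other checkpoint or adhesion receptors, 10 and 11 were higher and 4 lower in each comparison. Among the lower ones, Fgl2, a ligand of the Fc gamma receptor IIB, went from 39.8 ± 6.5 to 14.7 ± 2.1 and 15.7 ± 1.4 FPKM. Lgals3, which encodes galectin-3, went from 2400 to 1027 and 924 FPKM, with log2 changes of -1.23 and -1.38. Cd200, the ligand of an inhibitory myeloid receptor, went from 3.62 to 1.39 and 1.22 FPKM. Among the higher ones, Lgals9, which encodes galectin-9 and is a ligand of TIM-3, rose from 37.0 to 69.0 and 68.4 FPKM, with log2 changes of 0.89 and 0.87 (adjusted p = 8.08e-09 and 9.02e-09). Icam1 and Cd48, adhesion ligands of LFA-1 and 2B4, rose by 1.03 and by 0.84 on the log2 scale in both comparisons.

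**Figure D4:**
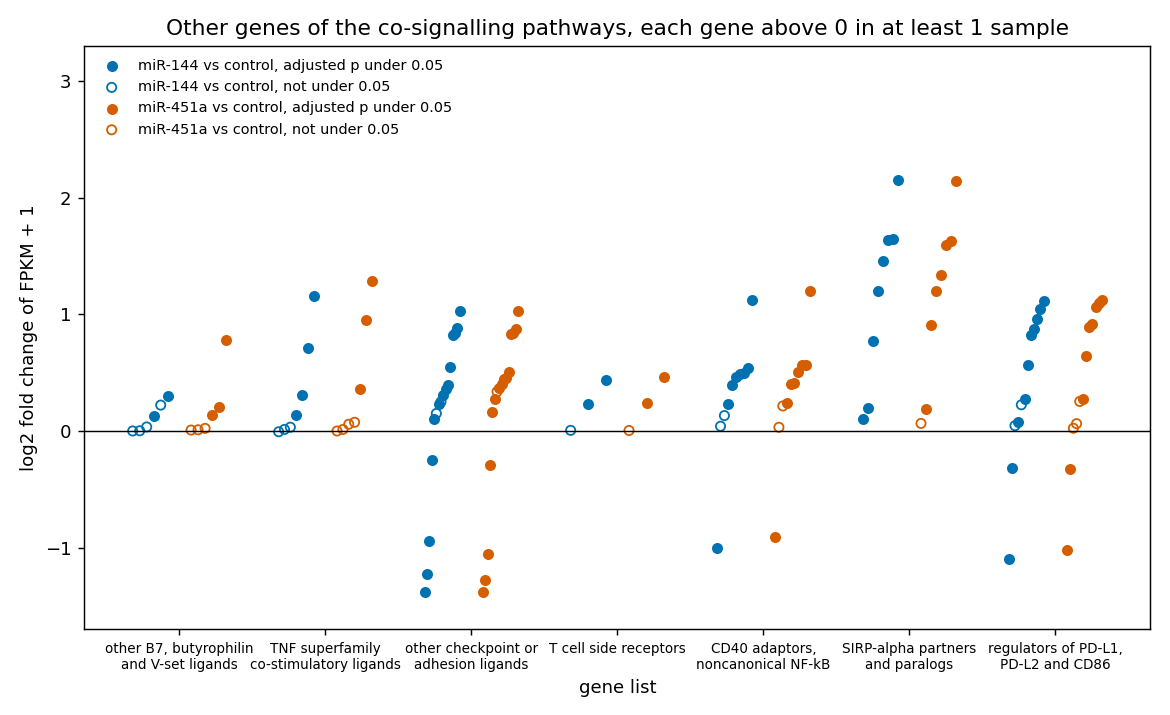
Change (log2 of FPKM + 1) of each gene of 7 pathway lists in miR-144 TAMs and miR-451a TAMs against control TAMs, with filled points for an adjusted p under 0.05 and open points otherwise, for the 62 genes above 0 in at least 1 sample. Most filled points lie above 0, and the lower ones include Fgl2, Lgals3, Cd200, Traf5 and Jak2.

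Of the 10 CD40 adaptors and genes of the noncanonical NF-kB pathway, 7 were higher and 1 lower in each comparison. Map3k14, the kinase NIK, rose from 2.14 ± 0.21 to 5.81 ± 0.44 and 6.19 ± 0.21 FPKM (log2 change 1.12 and 1.20), while the receptor gene Cd40 was not called. Relb, a subunit of the noncanonical NF-kB dimer, rose by 0.54 and 0.57, and Traf1 by 0.49 and 0.57. Traf5, an adaptor of TNF receptors, went the other way, from 6.11 to 2.54 and 2.78 FPKM.

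All 8 tested partners and paralogs of SIRP-alpha were higher in miR-144 TAMs, and 7 in miR-451a TAMs. In the separate fit of the 11419 genes, 47.1% and 48.1% of those genes were higher. Fyb, an adaptor protein, rose from 14.7 ± 0.71 to 69.0 ± 3.0 and 68.5 ± 1.9 FPKM (log2 change 2.15 and 2.14). The paralogs Sirpb1b and Sirpb1c rose by 1.64 and by 1.63 and 1.60, and reads shared within this gene family may have been divided among its members.

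The list of regulators of PD-L1, PD-L2 and CD86 held 8 higher and 2 lower genes of 12 in miR-144 TAMs, and 7 and 2 in miR-451a TAMs. Jak2, a kinase behind the interferon-gamma receptor, went from 22.7 ± 1.1 to 10.1 ± 0.49 and 10.7 ± 0.54 FPKM (log2 change -1.10 and -1.02, adjusted p = 3.30e-11 and 6.37e-11). Ifngr2, a chain of that receptor, changed by -0.31 and -0.33, whereas the other chain Ifngr1 rose by 0.96 and 1.12. Il4ra, a chain of the interleukin-4 receptor, rose from 11.9 to 25.6 and 26.1 FPKM. Transcripts of one receptor pathway therefore changed in both directions.

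The partners on T cells were nearly absent. Pdcd1 and Cd40lg were listed at 0 in all 15 samples and Ctla4 was at most at 0.0191 FPKM. Cd3e and Cd3g, chains of the T cell receptor complex, were also listed at 0 in all samples. Icos was at most at 0.305 FPKM but passed the test, with means of 0.0342, 0.214 and 0.221 FPKM. Cd28 was an exception, with 26.7 ± 1.2, 36.5 ± 1.9 and 37.3 ± 2.3 FPKM (log2 change 0.44 and 0.47, adjusted p = 2.40e-06 and 1.14e-06).

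Markers were used to check the label. All 10 macrophage markers were expressed, and their sum rose with the miRNA groups, from 9030 to 9870 FPKM in control, to 15800 to 17500 in miR-144 and 15500 to 16600 in miR-451a TAMs. Of the 4 hepatocyte and hepatoma genes, Alb, Apoa1 and Ttr were at 0, and Afp measured 0.136 to 0.253 FPKM in control, 0.0753 to 0.232 in miR-144 and 0.0995 to 0.226 in miR-451a TAMs. Sums of some other lists moved in the direction of Cd80, Cd86, Icosl and Havcr2. The 8 dendritic cell markers summed to 3.24 to 5.60 FPKM in control, 7.51 to 11.5 in miR-144 and 7.70 to 12.5 in miR-451a TAMs, with 7 of them under 1 FPKM in each sample and Fscn1 making up most of the sum, while Flt3 and Ccr7 did not exceed 0.0747 and 0.0374 FPKM. The 4 B cell markers summed to 0.138 to 0.375, 1.11 to 1.45 and 1.17 to 1.73 FPKM with Ms4a1 at most at 0.0142 and Cd79b making up most of the sum, and the 4 monocyte markers to 2.39 to 3.75, 7.05 to 12 and 6.59 to 11.1 FPKM. The 5 Kupffer cell markers summed to 3.3 to 3.77, 17.1 to 50.1 and 16.0 to 47.3 FPKM, most of it Cd5l, with Clec4f at 0. The 6 T cell markers summed to 1.17 to 1.55, 5.52 to 8.86 and 5.27 to 9.45 FPKM, most of it Cd4, which macrophages can also express. The 3 plasmacytoid dendritic cell markers summed to 113 to 140, 187 to 271 and 198 to 272 FPKM, most of it Bst2, with Siglech at most at 0.284 FPKM. The 3 endothelial markers summed to 2.72 to 3.38, 3.53 to 4.5 and 3.41 to 5.37 FPKM, most of it Kdr, with Pecam1 at most at 0.232 FPKM. In the opposite direction, the 3 NK cell markers summed to 0.192 to 0.416, 0.0477 to 0.168 and 0.0323 to 0.137 FPKM, with Ncr1 and Gzma at 0. The sort used antibodies against CD11b and the macrophage antigen encoded by Adgre1. The part of such cells in the changes was not tested.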

How the data were processed

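The expression table covers TAMs of 15 tumor samples, 5 per group, grouped and numbered by their labels. The authors deposited FPKM per gene and sample from an Illumina instrument. The submitters' processing notes name FastQC 0.11.2, STAR and StringTie without their roles, and the genome build and annotation are not given in the sources used here. FPKM is divided by depth and length, so that a strong change in abundant genes can shift the others.

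log2(FPKM + 1) was fitted with limma 3.58.1 (R 4.3.3), as 1 model of the 3 group means with intensity trend, and p-values were adjusted by Benjamini-Hochberg across 29540 genes, those above 0 somewhere. An adjusted p under 0.05 was called. Changes on this scale understate those of genes under 1 FPKM. Depth was inferred from steps between low FPKM values, with 40.5% to 54.2% of values within 0.05 steps of a multiple (10% by chance), so counts were not recovered. The floor was 3 fragments and covers counting error only. Replicates differed by more than sampling noise.

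The 9 genes and the other lists were chosen with earlier results of these data known. Of each list, up to 3 genes per direction, called in both comparisons with no overlap, were named, with the T cell receptors and the 3 genes most like each of the 9. A gene named by this rule is not reported here, but its list was counted with it. Coordinates are 1-based, from GENCODE M21 (99.67% of identifiers found) and RefSeq, and may differ from the build of the authors. Alternatives were a pseudocount of 0.1, median centring, quantile normalization, TPM, only genes averaging 1 FPKM or more, a replicate block, no trend, only the 2 groups compared, and each sample left out in turn. The fit was first tested on simulated data.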

Additional observations from a re-analysis of the deposited data

Results flagged for a closer look

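In the control group, the lowest Sirpa value (control replicate 5, 117.7 FPKM) was far from the other 4 samples, with a gap of 0.957 of the group's whole range, above the critical value of 0.71 for 5 samples. Of 27 groups of values examined in this way (9 genes in 3 groups), chance would give about 1.35 such gaps. In both miRNA groups, where 2 of 5 samples were at the lower level, no single sample was set apart.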

How the results depend on the processing

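The 7 called genes kept their direction and their call in both comparisons with control under 8 other settings and with each of 15 samples left out in turn. The replicate numbers were not taken as pairs, because the labels do not say that they mark a shared mouse, batch or day. The mean correlation of same-numbered deviations was -0.0122 between control and miR-144, 0.14 between control and miR-451a and 0.10 between the miRNA groups. For samples of different numbers it was 0.0031, -0.0347 and -0.0251. In the same order, 0, 3 and 1 of 5 samples correlated best with their own number. With the replicate block, 7, 8 and 0 of the 9 genes and 9635, 10030 and 0 of all genes were called, the added gene being Cd40 in miR-451a TAMs (adjusted p = 0.0483). The Cd40 call was also gained without control replicate 1 (0.0492) and without miR-451a replicate 4 (0.0476). Median centring gave 20115 and 20634 calls over all genes against control, 4124 and 4247 of them higher (against 6835 of 9686 and 7229 of 10091), because it also shifts genes listed at 0, and 33 of 47 and 33 of 50 called pathway genes were then higher. The median change of the 11419 genes moved from 0.13 and 0.14 to -0.0046 and -0.0075 by median centring and to 0.22 and 0.23 in TPM. Between the miRNA groups, limma without a trend called 1 gene, and 0 to 1 when a sample was left out. Shares were apart for all 8 genes without Sirpa. In the sum over the 9 genes they were apart for 5, and for 5 to 7 with a sample left out. Changes that were not called turned sign in some settings. Cd40 in miR-144 TAMs was -0.034 after median centring and -0.0472 after quantile normalization, and -0.0006 in miR-451a TAMs. Sirpa was 0.0679 and 0.0361 after quantile normalization, and -0.384 to 0.114 and -0.426 to 0.0722 with samples left out. Between the miRNA groups, Cd80 was -0.0028 after median centring and -0.0047 after quantile normalization, and with samples left out Cd80 ranged from -0.0572 to 0.0941, Cd86 from -0.0514 to 0.0739, Cd276 from -0.0137 to 0.129 and Sirpa from -0.254 to 0.17. The cause was not tested. Depth limits Pdcd1lg2 in the miRNA groups, where 1 of 10 samples was under the floor of the shallowest sample.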
